A study of Mus musculus with 27 samples.

Results

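The genes described here encode the nuclear subunits of oxidative phosphorylation, taken by symbol from the deposited liver RNA table as every gene whose name begins with Ndufa, Ndufb, Ndufc, Ndufs, Ndufv, Uqcr, Cox4 to Cox8 or Atp5, together with Cyc1 and the 4 Sdh genes. The names matched 91 genes, of which 89 had any count, among 18956 genes with any count. By name, 42 of the 89 belong to complex I, 4 to complex II, 9 to complex III, 17 to complex IV and 17 to complex V. Ndufa4 is counted with complex I by its name throughout, though later work places its protein with complex IV. The symbol rule also takes in some genes that are no structural subunits, namely the assembly factors Ndufaf1, Ndufaf2, Ndufaf3 and Ndufaf4, the supercomplex factor Cox7a2l, the paralog Ndufa4l2, and Cox4nb, Atp5s and Atp5sl. The subunits encoded by mitochondrial DNA were not matched and are not analysed here.

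Complexes I and II feed electrons from NADH and succinate into coenzyme Q, complex III passes them to cytochrome c, and complex IV hands them to oxygen. The proton gradient that complexes I, III and IV build drives complex V, the ATP synthase. In hepatocytes this chain reoxidises the carriers reduced by fatty acid oxidation and the tricarboxylic acid cycle, and supplies the ATP for gluconeogenesis and urea synthesis.

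RNA was sequenced from livers of ad lib fed C57Bl/6 mice killed 10 days after injection of AAV8, a viral vector that carries genes into hepatocytes. There were 4 HDAC3 LKO libraries (HDAC3 floxed mice given Cre), 4 SCAP LKO libraries (SCAP floxed, Cre) and 3 Double LKO libraries (HDAC3/SCAP floxed, Cre). The 6 controls were given GFP and comprised 2 libraries from each floxed line. HDAC3 is a histone deacetylase that works in corepressor complexes, and SCAP escorts the SREBP transcription factors to where they are activated. No mice without floxed alleles received Cre, so an effect of Cre itself and one of gene loss cannot be told apart in a comparison with GFP. Whether each library comes from its own mouse is not in the labels. The p-values therefore reflect only how these libraries differ, which may be technical. Whole liver was used, and fewer cells of a type and less RNA per cell cannot be told apart.

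Library totals ran from 3546597 to 20622671 counts. Hdac3 averaged 36.9 ± 2.26 CPM (counts scaled to the normalized library size, mean ± SD, n = 6) in controls, 9.59 ± 1.47 in HDAC3 LKO (n = 4) and 11 ± 1.64 in Double LKO (n = 3). Scap averaged 118 ± 17.2 CPM in controls, 51.4 ± 6.24 in SCAP LKO (n = 4) and 47.6 ± 2.82 in Double LKO. Both targeted genes therefore matched the labels in all 17 libraries. The library Double LKO 2 stood apart from the other Double LKO libraries. Its summed level of 6 hepatocyte markers (Alb, Apoa1, Ttr, Serpina1a, Cps1 and Tat) was 63900 CPM, against 97200 to 131000 CPM in the other 16 libraries, and its normalization factor was 1.167, against 0.9119 to 1.097. Counts in Double LKO against control are given with and without it, and calls of single genes where it ends them.

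Paralogs known from other tissues were at or near 0. Cox7b2 and Cox8c had 0 counts in all 17 libraries and were the genes left out by the need for any count, while Cox8b, the gene just inside that limit, had 5 counts in all. Cox6a2 had 6 counts in all and Cox7a1 112, and both are known as the heart and skeletal muscle forms. Cox4i2, a form known from lung, had 7. Cox6b2, a testis form, had 18, Atp5g2 had 72 and Ndufa4l2 had 136. These 7 genes fell under the filter on low counts, which left 82 of the 89 for testing among 12009 genes. They comprised 41 genes of complex I, 4 of complex II, 9 of complex III, 12 of complex IV and 16 of complex V, and 74 were structural subunits. Muscle markers were near 0, with a summed level of 8 genes of at most 0.556 CPM in any library. Ckm had no count in any library.

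With HDAC3 lost, 10 of these genes rose by a small amount. In HDAC3 LKO against GFP control these were 10 of 82, and 0 fell, at an adjusted p under 0.05 (edgeR quasi-likelihood test, Benjamini-Hochberg over all genes tested), or 12.2% of those tested. Of all genes tested, 7.88% rose and 6% fell. The median log2 fold change was 0.19, against -0.02 over all genes tested, and 76 of the 82 had a positive value, against 47.4% of all genes. At an unadjusted p under 0.05 there were 27 members (32.9%), beside 27.2% of all genes tested. Their log2 fold changes ran from -0.25 to 0.46 over all 82. The genes that rose were Ndufa7, Ndufa5, Ndufb6 and Ndufs4 of complex I, Sdhd of complex II, Uqcrc1 and Uqcrc2 of complex III, Cox5a of complex IV, and Atp5d and Atp5g3 of complex V, all of them structural subunits.

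**Figure D1:**
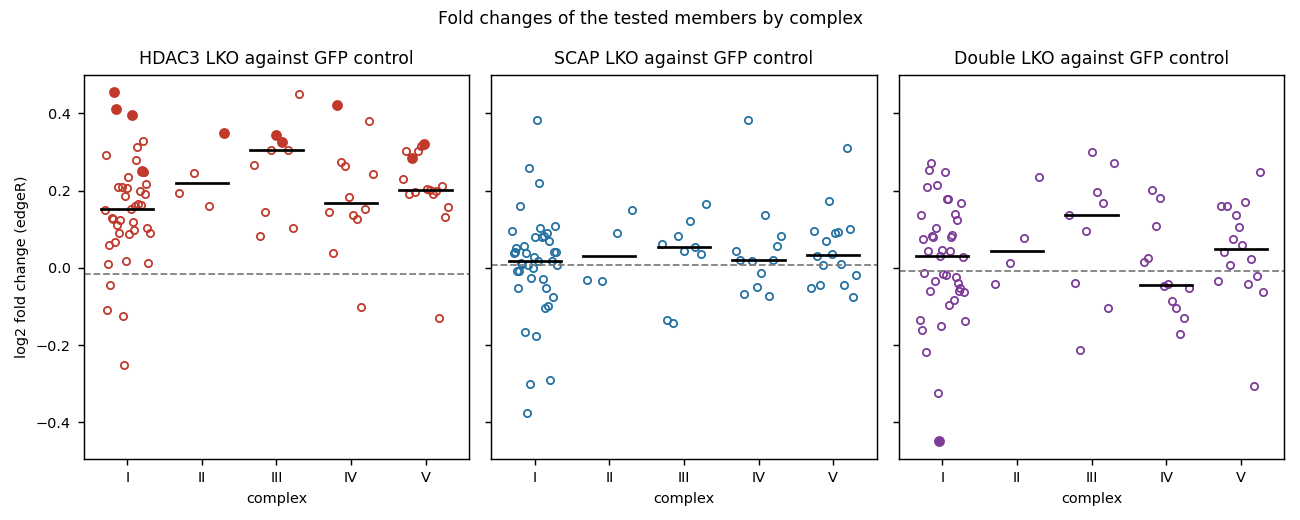
log2 fold change of each of the 82 tested genes against the 6 GFP controls (y axis) by complex (x axis), for HDAC3 LKO, SCAP LKO and Double LKO. Filled circles passed an adjusted p of 0.05, black bars are the median of a complex and the dashed line is the median of all genes tested. In HDAC3 LKO the medians of all 5 complexes lie between 0.15 and 0.31, while 10 genes passed. In SCAP LKO none passed, and in Double LKO only Ndufaf4 did.

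The size of that count depended on single libraries. Without double-floxed control 1, HDAC3-floxed control 2, SCAP-floxed control 2 or HDAC3 LKO 4, 3 members rose (3.66%). Of all genes, 5.47% to 6.77% rose in these fits. Without double-floxed control 2, HDAC3 LKO 1 or HDAC3 LKO 2, 4 rose (4.88%), beside 6.02% to 7.01% of all genes. The members were thus called less often than genes at large in all of these fits. There were 16 (19.5%, beside 8.28% of all genes) without HDAC3-floxed control 1, which had the highest level of all 17 libraries for 16 members. Without Double LKO 2 there were 18 (22%, beside 9.55%). Of all genes, 5.47% to 9.55% rose in the fits that left out 1 library. Ndufa7 and Ndufa5 were called in all 17 of these fits, Cox5a in 16 (it was lost without HDAC3 LKO 4), and the other 7 in 7 to 12. Against the 2 controls of the same floxed line 0 members passed, where 4.2% of all genes rose and 2.67% fell, with a median log2 fold change of 0.16 and 75 of 82 positive. DESeq2 called 14, and the authors' deposited table has 2 members with an FDR under 0.05, Cox5a (log2 fold change 0.40, FDR 0.031) and Ndufa5 (0.43, FDR 0.025). The share of all genes called is not given here for DESeq2 or for the deposited table, so neither count can be set against it.

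Scaling bears on the size of the shift. Normalization factors were 0.936 to 0.951 in HDAC3 LKO and 0.971 to 1.043 in the controls. Scaled by library size alone, the median of all genes moved to -0.12 and that of the members to 0.08. With that scaling 63 of 82 members were positive, 5 rose (Ndufa5, Ndufa7, Cox5a, Uqcrc1 and Uqcrc2) and 1 fell, Ndufaf4. The share of all genes that passed with that scaling is not given here.

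Known regulators of respiratory chain genes bind near their start sites. They include NRF1, the ETS family factor GABP, YY1 and the oestrogen-related receptors (ERR). Windows of 300 bases, from 250 bases before to 50 after the start, were taken from RefSeq (GRCm38.p6) and matched by symbol for 73 of the 89 genes. Letters were searched on both strands, and a gene counts as holding a motif if any of its windows does. The NRF1 letters GCGCANGCG were in 21 of the 73 (28.8%), against 15.2% of the 9515 tested genes with a window. The ETS letters CCGGAAG were in 17 (23.3%, against 20%). The YY1 letters AANATGGCG were in 11 (15.1%, against 6.09%). The ERR letters TCAAGGTCA were in 2 (2.74%, against 0.315%), and the SREBP letters TCACNCCAC in 0 (against 1.46%). Of the 9 genes that rose in HDAC3 LKO and have a window, 4 held the NRF1 letters, as did 16 of the 60 other tested members with a window. The ETS letters were in 2 of the 9 and in 15 of the 60, and the YY1 letters in 2 and 9. The ERR letters were in 2 of the 9, Sdhd and Atp5g3, and in 0 of the 60. Whether any of these letters go with the rise was not tested. A match is a description of letters in these windows and not a binding site.

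The windows below show the genes that carry the results: 5 that rose with HDAC3 loss and, last, Ndufaf4, the gene that fell in Double LKO. Capitals mark matches to the letters above, and positions count from 0 at the start base. Sdhd (chr9:50603800-50604099, minus strand) holds 3 different motifs, NRF1 at -79, ETS at -46 and ERR at 36. Uqcrc1 (chr9:108936398-108936697, plus strand) holds NRF1 letters at 6, 30 and 31, of which the last pair overlap as a palindrome. Ndufa5 (chr6:24527641-24527940, minus strand) holds NRF1 at -26 in the window shown, which is 1 of its 2 windows. Ndufa7 (chr17:33824395-33824694, plus strand) holds YY1 at -18 in the second of its 2 windows. Cox5a (chr9:57520982-57521281, plus strand) holds none of the 5 motifs. Ndufaf4 (chr4:24897833-24898132, plus strand) holds overlapping NRF1 letters at -113 and -112.
Sdhd: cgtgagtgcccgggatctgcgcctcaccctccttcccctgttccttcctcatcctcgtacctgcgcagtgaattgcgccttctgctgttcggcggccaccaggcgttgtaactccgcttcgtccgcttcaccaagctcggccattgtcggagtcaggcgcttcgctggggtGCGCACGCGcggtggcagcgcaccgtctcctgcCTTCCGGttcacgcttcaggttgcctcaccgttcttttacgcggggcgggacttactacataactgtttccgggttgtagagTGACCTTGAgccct
Uqcrc1: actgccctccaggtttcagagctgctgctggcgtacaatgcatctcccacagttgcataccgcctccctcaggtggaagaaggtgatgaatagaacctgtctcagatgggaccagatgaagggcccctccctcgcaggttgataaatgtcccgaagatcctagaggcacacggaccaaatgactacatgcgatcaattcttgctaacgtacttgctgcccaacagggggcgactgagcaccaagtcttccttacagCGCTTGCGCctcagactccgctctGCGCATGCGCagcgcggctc
Ndufa5: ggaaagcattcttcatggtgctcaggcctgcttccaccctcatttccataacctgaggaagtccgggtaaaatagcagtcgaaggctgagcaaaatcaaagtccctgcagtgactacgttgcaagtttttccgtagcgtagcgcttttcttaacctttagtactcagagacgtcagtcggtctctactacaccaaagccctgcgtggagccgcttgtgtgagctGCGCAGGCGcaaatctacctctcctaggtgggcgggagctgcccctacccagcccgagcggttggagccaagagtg
Ndufa7: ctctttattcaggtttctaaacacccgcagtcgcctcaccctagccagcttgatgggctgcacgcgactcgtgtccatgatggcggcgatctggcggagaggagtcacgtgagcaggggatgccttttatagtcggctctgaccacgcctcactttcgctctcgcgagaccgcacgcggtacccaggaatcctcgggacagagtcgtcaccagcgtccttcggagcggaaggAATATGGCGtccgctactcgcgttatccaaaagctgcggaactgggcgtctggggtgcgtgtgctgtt
Cox5a: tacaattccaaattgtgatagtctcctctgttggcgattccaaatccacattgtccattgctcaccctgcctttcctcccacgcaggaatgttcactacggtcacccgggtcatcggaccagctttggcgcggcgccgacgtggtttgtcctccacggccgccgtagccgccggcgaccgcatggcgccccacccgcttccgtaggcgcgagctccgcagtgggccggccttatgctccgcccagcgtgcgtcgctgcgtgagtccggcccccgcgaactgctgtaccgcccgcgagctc
Ndufaf4: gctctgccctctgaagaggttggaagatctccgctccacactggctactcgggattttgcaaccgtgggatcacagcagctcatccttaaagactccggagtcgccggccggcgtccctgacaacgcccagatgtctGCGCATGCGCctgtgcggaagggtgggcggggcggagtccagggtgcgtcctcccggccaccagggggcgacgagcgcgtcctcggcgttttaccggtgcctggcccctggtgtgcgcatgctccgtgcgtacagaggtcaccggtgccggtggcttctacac
NRF1 letters are in the windows of Sdhd, Uqcrc1 and Ndufa5 and in that of Ndufaf4. Those genes passed in different comparisons, and Ndufaf4 did not pass without Double LKO 2. Whether the letters bear on either change was not tested.

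In complex I, 4 of 41 tested genes rose with HDAC3 loss, and the median log2 fold change was 0.15. Ndufa7, an accessory subunit, measured 61.2, 60.2, 55.2 and 70.8 CPM in the HDAC3 LKO libraries. Its 6 controls had a lowest, median and highest level of 41.3, 44.9 and 56.1 CPM. The groups overlapped only through HDAC3-floxed control 1, at 56.1, and HDAC3 LKO 3, at 55.2. Its log2 fold change was 0.41 ± 0.10 (SE), the lowest p among the members (adjusted p = 0.00862, edgeR). Ndufa5, an accessory subunit of the arm that takes up NADH, measured 44.6, 44.9, 39 and 44.8 CPM. Its controls ran from 27.7 through a median of 31.7 to 37.4, so every HDAC3 LKO library was above every control. The log2 fold change was 0.46 ± 0.12 (adjusted p = 0.0159, edgeR).

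Ndufb6, an accessory subunit of the membrane arm, measured 59.8, 59, 55.4 and 60 CPM in HDAC3 LKO. Its controls had a lowest, median and highest level of 35, 41.4 and 54.3 CPM, without overlap, and the log2 fold change was 0.40 ± 0.12 (adjusted p = 0.0403, edgeR). SCAP LKO libraries overlapped both of these groups, from 43.7 to 63.9 CPM. Ndufs4, whose loss in mice gives a Leigh-like brain disease, measured 66.7, 66.6, 60.8 and 57 CPM against controls of 46.6, 51.1 and 60.3 (lowest, median, highest). Its groups overlapped, and its log2 fold change of 0.25 ± 0.08 was the smallest of those that passed (adjusted p = 0.0352, edgeR).

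Of the 4 complex II genes, Sdhd rose. It encodes a membrane anchor of succinate dehydrogenase, the one enzyme shared by this chain and the tricarboxylic acid cycle. It measured 308.8, 315.5, 263.2 and 284.4 CPM in HDAC3 LKO, against a lowest, median and highest control of 208.6, 226.1 and 258.9 CPM. No library of the groups overlapped, and the log2 fold change was 0.35 ± 0.11 (adjusted p = 0.0473, edgeR). The flavoprotein subunit gene Sdha averaged 582.2 ± 31.2 CPM against 509.2 ± 42.8 in controls, and did not pass (log2 fold change 0.19 ± 0.10, adjusted p = 0.241, edgeR).

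Complex III had the highest median of the 5 complexes, at a log2 fold change of 0.31 over 9 genes, and all 9 were positive. Uqcrc1 and Uqcrc2, its core proteins, both rose. Uqcrc2 measured 334.3, 306.2, 296.4 and 306.6 CPM against controls of 234.6, 246.2 and 264.7 (lowest, median, highest). Its groups did not overlap, and the log2 fold change was 0.33 ± 0.10 (adjusted p = 0.0333, edgeR). Uqcrc1 measured 295.6, 274, 303.8 and 331.6 CPM against controls of 217, 229.3 and 279.9. Here HDAC3-floxed control 1, at 279.9, lay above HDAC3 LKO 2, and the log2 fold change was 0.34 ± 0.11 (adjusted p = 0.0399, edgeR). Uqcrfs1, the Rieske iron-sulphur protein, had a log2 fold change of 0.30 ± 0.11 that did not pass (adjusted p = 0.067, edgeR). The haem-bearing subunit Cyc1 was above every control in all 4 libraries, at 137.8 to 149.1 CPM against 112.6 to 136.1, yet did not pass (0.27 ± 0.11, adjusted p = 0.118, edgeR).

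In complex IV 1 of 12 tested genes rose. Cox5a, a nuclear subunit that faces the matrix, measured 109.4, 108.3, 103.5 and 115.1 CPM in HDAC3 LKO. Its controls had a lowest, median and highest level of 70.6, 77.7 and 95.2 CPM, so the groups did not overlap. The log2 fold change was 0.42 ± 0.12 (adjusted p = 0.0188, edgeR). Cox4i1, the liver form of subunit IV, averaged 344.7 ± 15.3 CPM against 311.8 ± 26.2 and did not pass (0.14 ± 0.10, adjusted p = 0.373, edgeR).

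Complex V contributed Atp5d and Atp5g3 of 16 tested genes. Atp5d encodes the delta subunit of the central stalk. It measured 110.5, 118.9, 116.3 and 128.8 CPM, each above the highest control of 109.1 (lowest 90.9, median 96.3), with a log2 fold change of 0.29 ± 0.08 (adjusted p = 0.0254, edgeR). Atp5g3 is 1 of 3 genes for the membrane c subunit, which share a mature protein. It measured 284.1, 288.5, 257.2 and 275.1 CPM against controls of 192.9, 214.9 and 256.2, and its log2 fold change was 0.32 ± 0.10 (adjusted p = 0.0354, edgeR). HDAC3-floxed control 1, at 256.2, lay just below HDAC3 LKO 3, at 257.2. The related gene Atp5g1 averaged 39.8 ± 4.62 CPM against 32 ± 3.93 and did not pass (0.32 ± 0.12, adjusted p = 0.0868, edgeR). The catalytic subunit Atp5b measured 1382 to 1603 CPM against 1156 to 1338, above every control, and did not pass (0.30 ± 0.11, adjusted p = 0.0688, edgeR).

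**Figure D2:**
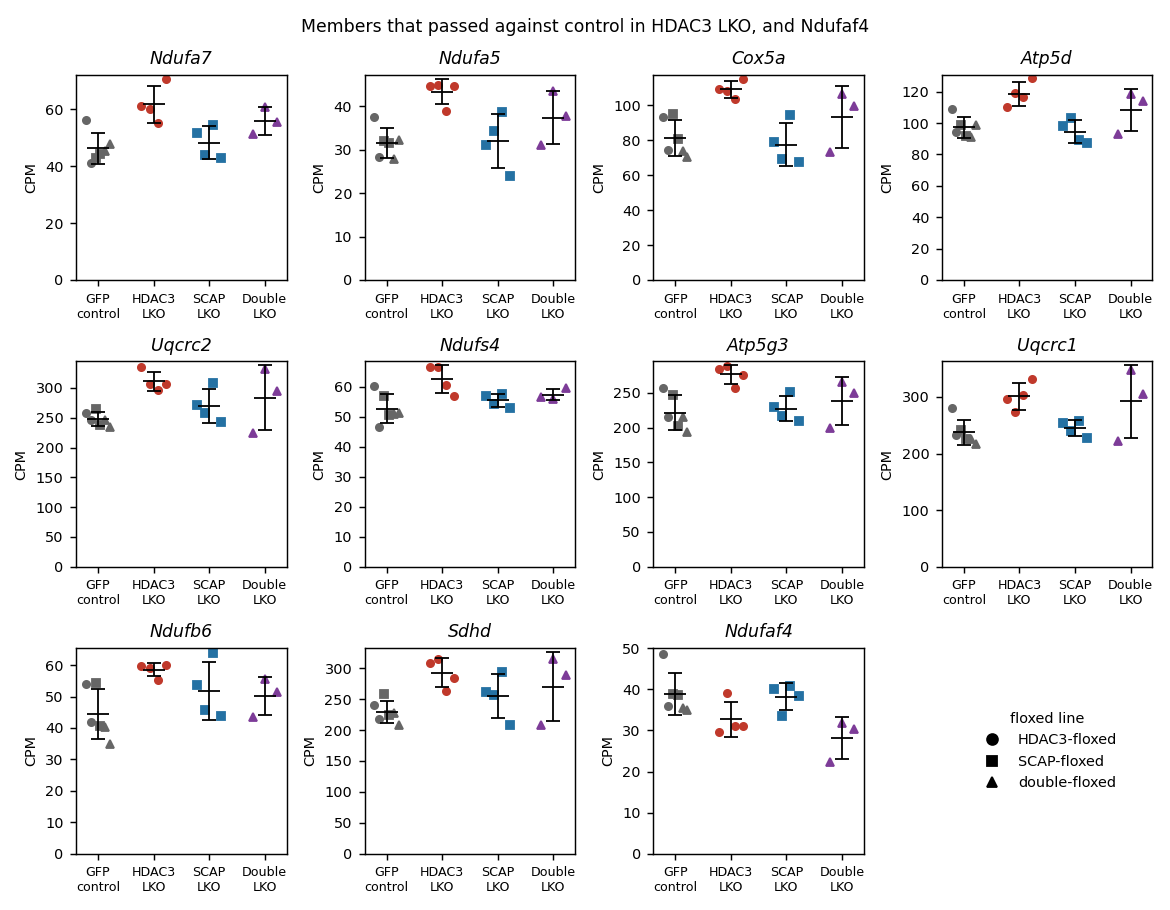
Normalized level (y axis, CPM, starting at 0) of the 10 genes that passed in HDAC3 LKO and of Ndufaf4, in each library by group (x axis). Circles, squares and triangles are HDAC3-floxed, SCAP-floxed and double-floxed livers, and black bars are the mean and SD. For Ndufa5, Cox5a, Atp5d, Uqcrc2, Atp5g3, Ndufb6 and Sdhd the 4 HDAC3 LKO libraries sit above all 6 controls. Double LKO 2 is the lowest of the 3 Double LKO libraries in each panel except Ndufs4.

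Counted over all 82 tested genes, every HDAC3 LKO library was above every control for 12 members (14.6%) and below for 0, while 7.49% of all genes tested lay above and 5.4% below. Those 12 are Atp5b, Atp5d, Atp5f1, Atp5g3, Cox5a, Cyc1, Ndufa10, Ndufa5, Ndufa9, Ndufb6, Sdhd and Uqcrc2. Of the 6 members with a negative log2 fold change, 3 were structural subunits and 3 were not. The lowest value was that of the assembly factor Ndufaf4, at -0.25 ± 0.12 (adjusted p = 0.171, edgeR).

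SCAP loss alone moved these genes little. Of 82 tested, 0 rose and 0 fell by edgeR, where 0.258% and 0.933% of all genes did, and 0 passed with DESeq2. The median log2 fold change was 0.03, with 54 of 82 positive. Only Cox5b, a zinc-binding subunit of complex IV, had an unadjusted p under 0.05, as 10.7% of all genes tested did (log2 fold change 0.38 ± 0.17, adjusted p = 0.407, edgeR). Every SCAP LKO library was above every control for 1 member, the complex I assembly factor Ndufaf2, at 7.64 to 8.72 CPM against 5.81 to 7.53, and below for 0. Among all genes tested 1.62% lay above and 2.19% below.

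In Double LKO livers no member rose in the fit of all 17 libraries. Of 82 tested genes 0 rose and 1 fell by edgeR, against 7.56% and 6.34% of all genes, and the median log2 fold change was 0.03. DESeq2 gave the same counts, with no share of all genes beside them. The gene that fell was Ndufaf4, an assembly factor of complex I. It measured 22.3, 31.8 and 30.4 CPM in Double LKO libraries 2, 3 and 4, against controls of 35, 37.4 and 48.7 CPM (lowest, median, highest), without overlap. Its log2 fold change was -0.45 ± 0.13 (adjusted p = 0.0232, edgeR), and HDAC3 LKO libraries measured 29.5, 39, 31.1 and 31.1. In the authors' deposited edgeR values Ndufaf4 stood at -0.42 in Double LKO with an FDR of 0.653. There 0 members had an FDR under 0.05 in Double LKO. All Double LKO libraries were above every control for 1 member, Ndufaf2 (7.63 to 8.51 CPM), and below for 1, Ndufaf4, where 7.09% and 7.27% of all genes were.

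These 3 libraries did not behave alike. Double LKO 2 was the lowest of all 17 libraries for 42 of the 82 genes, with a median difference from the control mean of -0.27 on the log2 scale, while Double LKO 3 and Double LKO 4 stood at 0.21 and 0.13. For Uqcrc1 they measured 222.8, 348.3 and 305 CPM, and for Sdhd 207.6, 315.1 and 288.3 CPM. In both genes Double LKO 2 lay below the control median and the other 2 above the highest control. Without Double LKO 2, 4 members rose (Uqcrc1 at 0.46, Sdhd at 0.39, Uqcrc2 at 0.34 and Cyc1 at 0.32), or 4.88%, and 0 fell, where 7.69% of all genes tested rose and 5.26% fell. The median was then 0.15, with 72 of 82 positive, and Ndufaf4 stood at -0.33 (adjusted p = 0.103, edgeR). The other 2 libraries were above every control for 16 members and below for 1, where 12.8% and 11.4% of all genes were. The part of the low hepatocyte marker level of that library in these values was not tested. Against the 2 double-floxed controls alone, 0 members rose and 0 fell. The share of all genes that passed there is not given here, so these counts cannot be set against it.

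**Figure D3:**
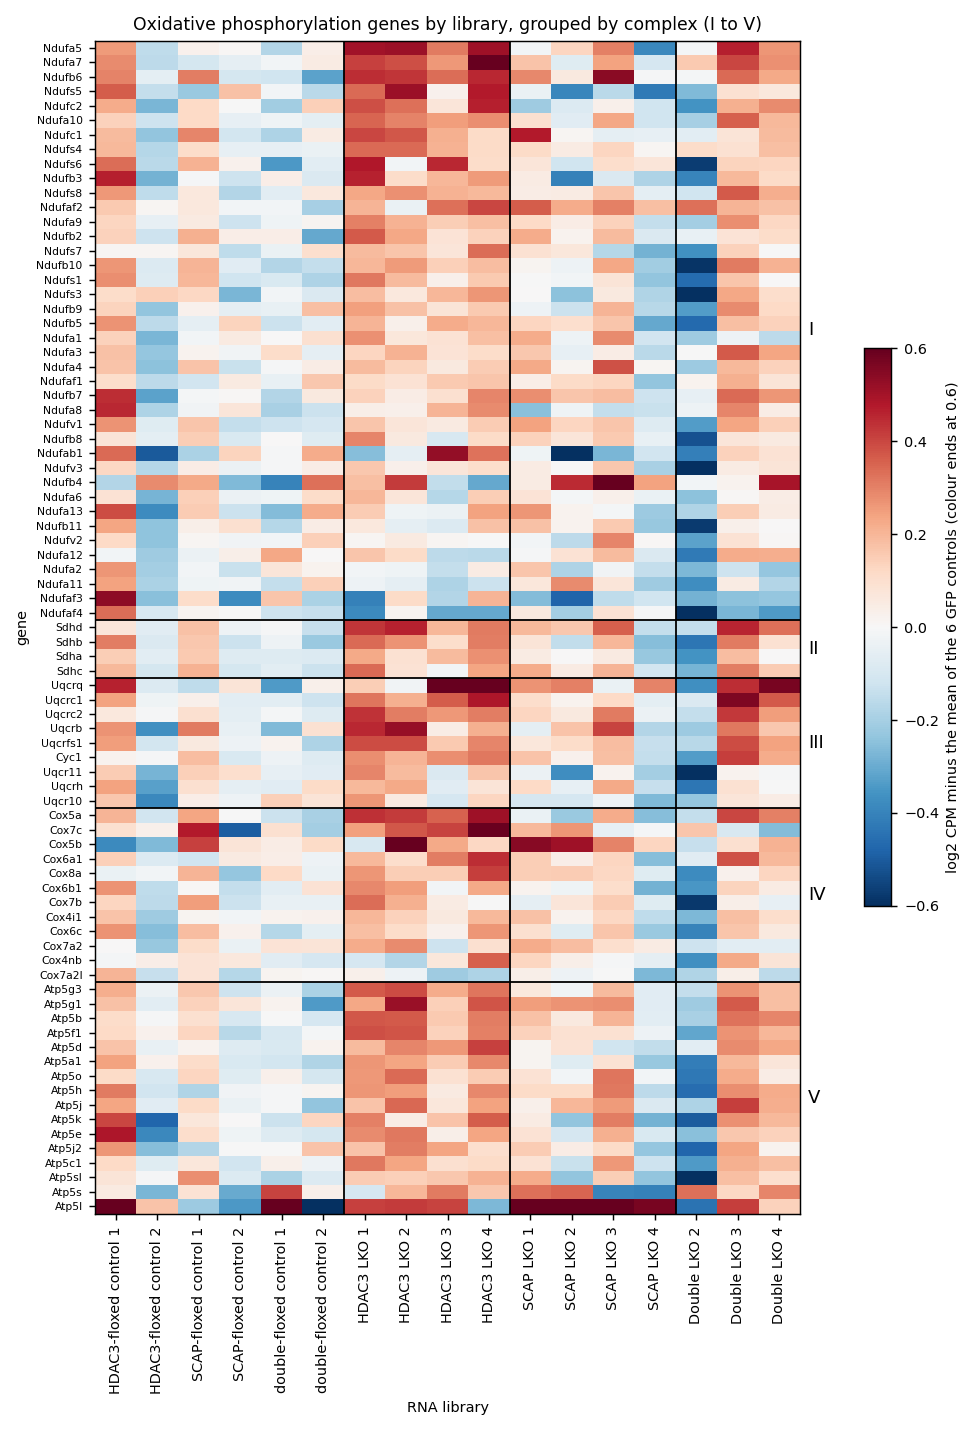
Each row is 1 of 81 tested genes and each column 1 of the 17 RNA libraries; colour is the log2 CPM minus the mean of the 6 GFP controls, red above and blue below. Black lines separate the 5 complexes and the 4 groups. The HDAC3 LKO columns are mostly red, Double LKO 2 is mostly blue beside 2 mostly red Double LKO columns, and HDAC3-floxed control 1 is redder than the other controls.

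Set directly against HDAC3 LKO, Double LKO had 0 members higher and 0 lower by edgeR, where 0.108% and 1.2% of all genes were. By DESeq2 0 members passed, with no share of all genes beside that count. At an unadjusted p under 0.05 (edgeR) there were 8 members (9.76%), beside 10.9% of all genes. The median log2 difference was -0.17, with 76 of 82 negative, and it was -0.03 without Double LKO 2. The lowest p belonged to Cox7c, a small subunit of complex IV, at -0.51 ± 0.18 (adjusted p = 0.28, edgeR). Against SCAP LKO, Double LKO again had 0 higher and 0 lower by edgeR, beside 4.98% and 3.01% of all genes. By DESeq2 0 members passed here too, again with no such share. At an unadjusted p under 0.05 (edgeR) there were 3 members (3.66%), beside 22% of all genes. The median was 0.00, and 0.135 without Double LKO 2, where Uqcrc1 rose by 0.42 (adjusted p = 0.0212, edgeR). Uqcrc1 was the 1 member of 82 (1.22%) to rise in that fit and 0 fell, where 6.04% of all genes rose and 2.72% fell. Without HDAC3-floxed control 1, Ndufaf4 was lower than in SCAP LKO by edgeR (-0.42, adjusted p = 0.0351). In that fit 0 members were higher and 1 lower, where 5.58% of all genes were higher and 3.34% lower.

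Whether both losses together differ from the sum of each was tested as an interaction on the log2 scale. It passed for 0 of 82 members and for 0% of all genes tested by edgeR, 0 members passed with DESeq2, and 6 members (7.32%) had an unadjusted p under 0.05, beside 5% of all genes. The median was -0.19, with 74 of 82 negative, and it was -0.05 without Double LKO 2. A difference between the HDAC3 effect with and without SCAP was therefore not shown for any member, with either set of libraries.

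Summed over all members, the level was 9512 ± 772 CPM in controls (n = 6), with a lowest, median and highest library of 8866, 9132 and 10770. HDAC3 LKO libraries summed to 11080 ± 506 CPM (n = 4), from 10360 to 11520, and only HDAC3-floxed control 1 among the controls reached into that range. SCAP LKO summed to 9728 ± 856 (n = 4), from 8631 to 10590, and the Double LKO libraries to 7813, 10490 and 11260. Complex III was the one complex whose summed level did not overlap between HDAC3 LKO, at 1256 to 1378 CPM, and control, at 1008 to 1235. Complex V ran from 3870 to 4325 CPM against 3211 to 3962, and complex I from 2803 to 3113 against 2367 to 3067, both with overlap.

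**Figure D4:**
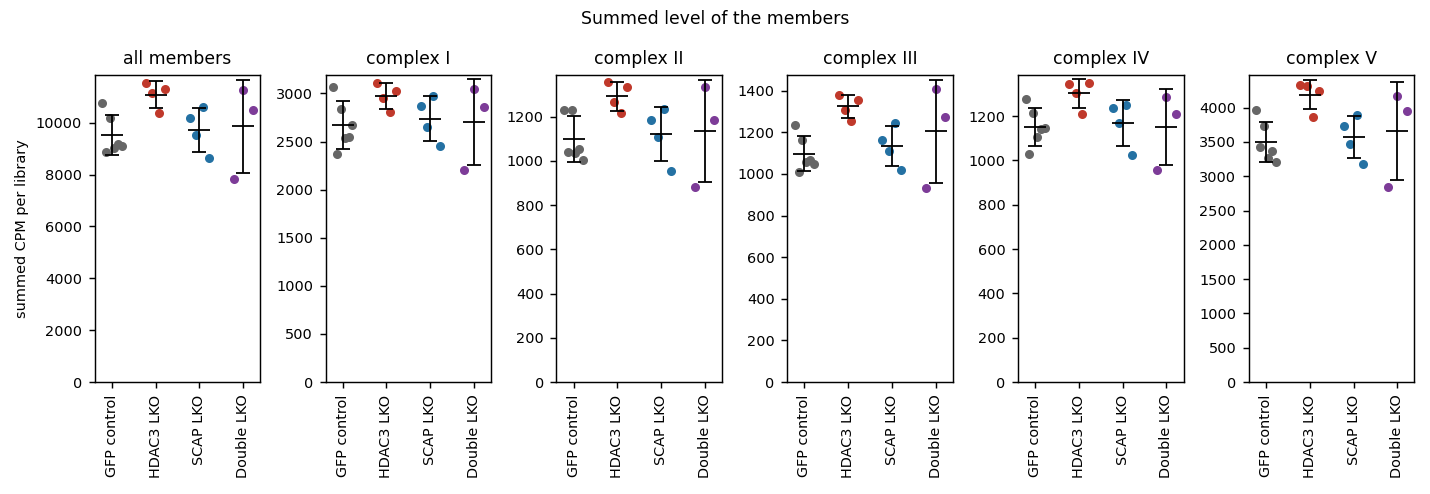
Summed level in each library (y axis, CPM, starting at 0) of all members and of each complex, by group (x axis), with the mean and SD in black. HDAC3 LKO libraries sum to 10360 to 11520 CPM over all members, SCAP LKO spans 8631 to 10590, and 1 Double LKO library lies at 7813 beside 10490 and 11260.

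The members moved together from library to library, also within groups. After subtraction of each group's mean, the median Pearson correlation over the 17 libraries between 2 members was 0.61 over 3321 pairs, of which 95.1% were positive. It was 0.58 within a complex and 0.62 between complexes. Over all pairs of genes tested the median was 0.00 and 50% were positive. All of these values share the same libraries and scaling. The libraries include Double LKO 2, the lowest of all 17 for 42 members, and correlations without it were not computed. Ndufa10 (median r with the other members 0.80) and Sdhb (0.79) were the most like the rest, while Cox7c (-0.01), Atp5s (0.01) and Ndufaf2 (0.08) were the least like it. Counts and medians over members are therefore not made of independent values.

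Related mitochondrial genes were read from the same fit. Of all genes tested, 7.88% rose and 6% fell in HDAC3 LKO. In Double LKO 7.56% rose and 6.34% fell, or 7.69% and 5.26% without Double LKO 2. A single gene that rose in a list below is a value of that gene and not a result about its list. The clearest change was in the tricarboxylic acid cycle and pyruvate dehydrogenase, where 11 of 19 genes rose and 0 fell in HDAC3 LKO, with a median log2 fold change of 0.34. Citrate synthase, Cs, rose by 0.77 ± 0.07 (adjusted p = 7.42e-07, edgeR), and the succinyl-CoA ligase gene Suclg2 by 0.64 ± 0.09. In Double LKO 7 of the 19 rose and 0 fell, with Cs at 0.59 ± 0.07 and Suclg2 at 0.63 ± 0.10. Without Double LKO 2, 8 rose and 0 fell. Of 74 tested mitochondrial ribosomal protein genes 12 rose and 0 fell in HDAC3 LKO (median 0.15, with Mrpl44 at 0.53 and Mrpl1 at 0.50). In Double LKO 6 of them rose, a share near that of all genes, and 0 fell (7 and 0 without Double LKO 2). Of 71 cytosolic ribosomal protein genes 2 rose and 1 fell in HDAC3 LKO (median -0.02; Rplp1 at 0.42), and 0 rose and 1 fell in Double LKO (1 and 1 of 74 without Double LKO 2).

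Of 32 assembly factors outside the symbol rule, 5 rose and 0 fell in HDAC3 LKO. They include Sco2, which delivers copper to complex IV (0.84 ± 0.20, adjusted p = 0.00692, edgeR), Cox19 (0.47 ± 0.09), Tmem70, an assembly factor of ATP synthase (0.37 ± 0.10), and Acad9, one of complex I (0.30 ± 0.08). In Double LKO 4 rose, Sco2 at 1.05 ± 0.21 among them, and 1 fell, the ATP synthase inhibitor Atpif1 (-0.57 ± 0.18, adjusted p = 0.0368, edgeR). Without Double LKO 2, 4 rose and 0 fell, with Sco2 at 1.34 ± 0.16 and Atpif1 at -0.54 ± 0.20 (adjusted p = 0.0761, edgeR). Of 17 genes for electron carriers and coenzyme Q synthesis, Coq9 rose in HDAC3 LKO (0.36 ± 0.07, adjusted p = 0.00236, edgeR), and 0 passed in Double LKO, with or without Double LKO 2.

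Among 21 tested regulators of mitochondrial biogenesis, Tfam, which packages and transcribes mitochondrial DNA, rose in HDAC3 LKO (0.35 ± 0.07, adjusted p = 0.00188, edgeR). The coactivator gene Pprc1 fell (-0.82 ± 0.20, adjusted p = 0.00962, edgeR), as did Tfb1m, a methyltransferase of mitochondrial ribosomal RNA (-0.48 ± 0.16, adjusted p = 0.0458, edgeR). In Double LKO the corepressor gene Nrip1 rose (0.53 ± 0.13) and Esrrg, an oestrogen-related receptor gene, fell (-1.55 ± 0.46, adjusted p = 0.0292, edgeR). Without Double LKO 2, 2 regulators rose and 0 fell, with Nrip1 at 0.56 ± 0.14 (adjusted p = 0.0113, edgeR) and Esrrg at -1.37 ± 0.47 (adjusted p = 0.0621, edgeR). Of 7 genes for uncoupling and ADP/ATP exchange, the carrier Slc25a5 rose in HDAC3 LKO (0.47 ± 0.10, adjusted p = 0.00421, edgeR), and 0 passed in Double LKO, or 1 without Double LKO 2. In SCAP LKO 0 genes of all 7 lists passed in either direction.

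**Figure D5:**
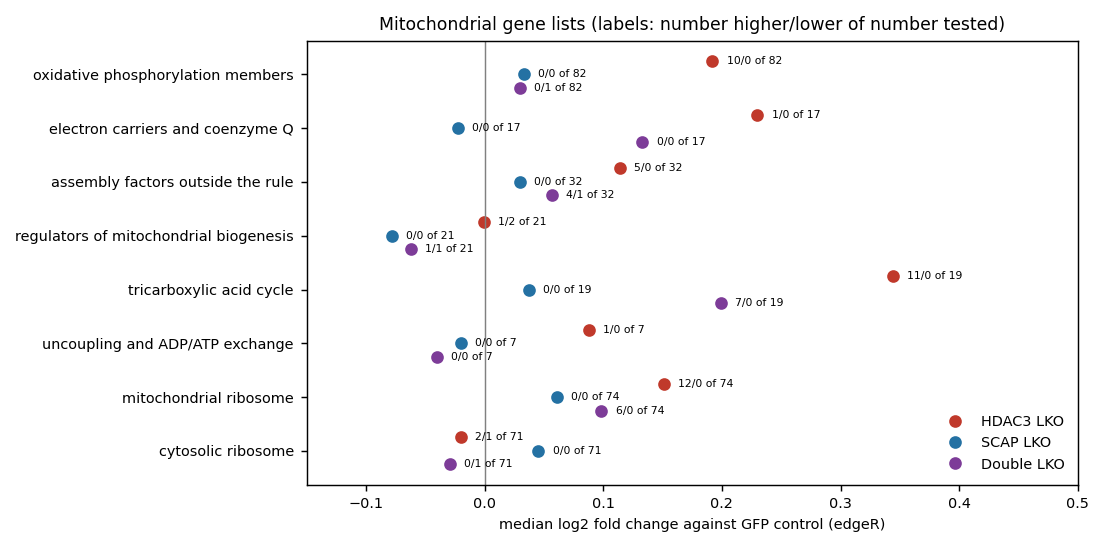
Median log2 fold change against GFP control (x axis) of the oxidative phosphorylation genes and of 7 related lists (y axis) in HDAC3 LKO, SCAP LKO and Double LKO; the label beside each point gives genes higher and lower of those tested. The tricarboxylic acid cycle list has the highest median in HDAC3 LKO, at 0.34 with 11 of 19 higher, and the SCAP LKO points lie near 0.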

How the data were processed

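Liver RNA libraries (17) were used, and the 10 chromatin samples were not: their deposited peak positions are on mm9, per the submitters' processing notes, and no mm9 annotation was at hand. The deposited table holds raw read counts per RefSeq transcript. How those reads were aligned and counted is not stated in the sources used here. The authors' own log2 fold changes and FDR values (adjusted p-values) come from edgeR, per the file headers. Another 17 columns of per-sample values were not used. The authors' marked transcript of each gene was taken (22869 of 28644). Column numbers differ from sample titles in several groups, so those columns were used by group, and library names are the table's.

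Counts were fitted with edgeR 4.0.16 (R 4.3.3): TMM scaling, filterByExpr, then quasi-likelihood F-tests in a joint fit of the 4 groups, called at an adjusted p under 0.05 over all 12009 genes. The SE was worked back from F. CPM are counts scaled to the TMM library size, and log2 levels used a prior count of 2. The scripts were tested on simulated data. DESeq2 1.42.0 was an alternative tool. Levels are not compared between genes, as transcript lengths were not used. The kit does not mark strand and the treatment of multiply mapping reads is not given, so genes with near-identical copies (the Atp5g genes and subunits with processed pseudogenes) or overlapping neighbours are uncertain.

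Members, lists, motifs and tests were chosen with earlier results of these data known. Named are Hdac3, Scap, all members that passed, the member of each complex with the highest CPM that did not (CPM is not scaled for length), members with the lowest p, tissue-specific paralogs, and up to 4 genes of each related list. Members named for lacking overlap, for their likeness to the rest or for single libraries were picked with their values in view. Some genes that this rule names are not reported here.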

Additional observations from a re-analysis of the deposited data

Results flagged for a closer look

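Levels of the named genes and the summed levels of the complexes were examined in 57 groups of 4 or 6 libraries for a library far from the rest, and chance alone flags about 1 in 20 such groups. There were 3. For Ndufa5, HDAC3 LKO 3 lay low at 38.99 CPM, against 44.58 to 44.88 in the other 3 HDAC3 LKO libraries. For Ndufaf4, HDAC3-floxed control 1 lay high at 48.69 CPM, against 35.03 to 38.96 in the other 5 controls. For the same gene HDAC3 LKO 2 lay high at 39.02 CPM, against 29.52 to 31.13 in the other 3.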

How the results depend on the processing

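None of the 11 called members changed direction under the alternatives tried. Of 273 values of single called members under alternatives, 173 kept their call and 100 lost it. Members higher in HDAC3 LKO against control numbered 10, and 4 with no filter on low counts, 5 by library size alone (with 1 lower), 0 against controls of the same line, 0 with the replicate block, 0 in the same numbered libraries without the block, and 3 to 18 when 1 library was left out (16 without HDAC3-floxed control 1). RLE factors and the largest transcript of each gene gave 10. Shares of all genes are given above for the main fit and, in HDAC3 LKO against control, for same-line controls and fits without 1 library. For Double LKO in fits without 1 library they follow below. For the other settings the counts have no such share beside them. In Double LKO against control, library size alone gave 1 higher, and leaving out 1 library gave 0 to 4 higher (2 without HDAC3-floxed control 1) and 0 to 1 lower. Of all genes, 5.86% to 7.75% rose and 4.08% to 6.27% fell in these fits without 1 library. Same-line controls gave 0 lower, with no share of all genes beside that count. For Double LKO against SCAP LKO, library size alone gave 1 lower, and leaving out 1 library gave 0 to 1 higher and 0 to 1 lower. There 3.67% to 6.04% of all genes were higher and 1.76% to 3.34% lower in the fits without 1 library. The causes were not tested. The numbered libraries without the block are fewer and hold only HDAC3-floxed controls, so these differences from the main fit cannot be told apart. By library size alone the median log2 difference of the members in Double LKO was -0.00217 against control and -0.0498 against SCAP LKO. Scaling by library size, the unblocked numbered libraries and related lists without Double LKO 2 were added after the data were seen.

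Replicate numbers of the same value share only a number: the correlation of deviations from group means was -0.0968 to 0.108 between libraries with 1 number. In the replicate block the median log2 fold change of the members in HDAC3 LKO was 0.194, with 74 of 83 positive. No paired analysis was possible for Double LKO because its columns carry no label number. The comparison of peaks with start sites, with its alternatives of distance, overlap and threshold, was not run. In these libraries changes above 0.2 on the log2 scale mostly did not pass: 36 members exceeded 0.2 in HDAC3 LKO and 10 passed.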
